A study of Mus musculus with 2 samples.

Results

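Pigment cell genes make melanin, the organelle that stores it, and the factors that switch both on. Here they are 9 mouse genes, Trpm1, Rab38, Tyr, Tyrp1, Dct, Mitf, Oca2, Slc45a2 and Gpr143, chosen by gene symbol, with every probe set that names 1 of them alone. They had 19 probe sets on the array, of 45101 in all, and stand among 18194 genes named by at least 1 probe set. Expression was measured on Affymetrix mouse arrays in 2 single cells of dissociated retina from CD1 mice, an albino outbred strain: 1 cell of postnatal day 0 (P0) and 1 of embryonic day 12.5 (E12.5). The labels name no treatment of the mice and no engineered allele, and the submitters assigned both to the ciliary body, at the rim of the optic cup, from their expression after the arrays had been read. With 1 cell for each age there was no replicate, so every difference below lies between these 2 cells, no test was possible, and the number of arrays limits the precision. Transcripts can be missed when so little RNA is copied, so for a gene under the background limit no absence is claimed. Below, "at P0" and "at E12.5" stand for these 2 cells.

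Melanin is made from tyrosine inside melanosomes, lysosome-related organelles of melanocytes and of the pigmented epithelia of the eye. Tyrosinase (Tyr) starts the synthesis, and its relatives Tyrp1 and Dct act on later intermediates. Oca2 and Slc45a2 encode melanosomal membrane proteins that set the conditions tyrosinase needs, Gpr143 encodes a receptor of the melanosome membrane, and Rab38 is a small GTPase that delivers the enzymes to the organelle. The transcription factor MITF drives most of these genes, among them Trpm1, a cation channel gene first known from melanocytes and later from the ON bipolar cells of the retina. At the rim of the optic cup the pigmented outer layer meets the neural retina, and both layers contribute to the ciliary body and iris. Albino laboratory mice carry a defective tyrosinase enzyme, while the pigmented layer itself forms.

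The windows before the transcription start are shown for 3 members because they hold the letters MITF reads and yet their genes stood far apart in signal. Of the 9 members, 6 had a window in the RefSeq promoter table of build GRCm38.p6, in 9 windows, and the 250 bases before each start were searched on both strands for CATGTG, the core read by MITF, for the longer M-box AGTCATGTGCT, which contains that core, and for the E-box CACGTG. The M-box was taken from the data as the longest stretch around CATGTG that the Tyr and Tyrp1 windows share, so both hold it by construction. Capitals mark the matches. The Trpm1 windows lie on the plus strand at chr7:64153585-64153834 and chr7:64185209-64185458, the Tyr window on the minus strand at chr7:87493513-87493762 and the Tyrp1 window on the plus strand at chr4:80833963-80834212, each printed 5′ to 3′ along the gene.
Trpm1, start 1: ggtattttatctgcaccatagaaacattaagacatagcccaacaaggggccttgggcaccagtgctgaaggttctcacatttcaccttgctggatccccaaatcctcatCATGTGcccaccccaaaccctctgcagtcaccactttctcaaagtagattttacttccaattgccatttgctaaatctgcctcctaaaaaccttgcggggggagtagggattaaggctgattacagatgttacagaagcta
Trpm1, start 2: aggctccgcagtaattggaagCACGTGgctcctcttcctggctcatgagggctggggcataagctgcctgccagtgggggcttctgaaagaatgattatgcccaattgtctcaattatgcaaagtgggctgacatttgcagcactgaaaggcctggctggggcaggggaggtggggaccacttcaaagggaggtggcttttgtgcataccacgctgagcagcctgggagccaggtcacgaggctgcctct
Tyr: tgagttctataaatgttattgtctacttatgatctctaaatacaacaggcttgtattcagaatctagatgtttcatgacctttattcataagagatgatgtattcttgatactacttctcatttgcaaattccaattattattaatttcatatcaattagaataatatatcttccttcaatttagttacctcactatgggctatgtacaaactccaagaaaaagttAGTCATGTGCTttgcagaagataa
Tyrp1: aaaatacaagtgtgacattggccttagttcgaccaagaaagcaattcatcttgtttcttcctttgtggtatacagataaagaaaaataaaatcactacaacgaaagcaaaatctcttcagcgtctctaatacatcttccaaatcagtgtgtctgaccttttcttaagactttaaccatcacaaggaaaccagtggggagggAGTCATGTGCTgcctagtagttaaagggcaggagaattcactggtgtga

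Of the 6 members with a window, 5 held CATGTG in at least 1 window: Trpm1, Tyr, Tyrp1, Dct and Oca2. Of 32851 single windows of the same length in the table, 12.3% held it, a rate by window and not by gene. Rab38, Slc45a2 and Gpr143 had no window. The M-box, matched letter for letter, stood in the windows of Tyr and Tyrp1, 24 and 49 bases before the start, and in 0.0213% of all windows. The Dct window held GGTCATGTGCT, which differs from it in the first letter alone and was not counted. The 7 genes with this exact M-box included 3 with a probe set, Tyr, Tyrp1 and C1qb, a complement gene. None of the 3 was above background in the P0 or the E12.5 cell. Since Tyr and Tyrp1 defined the motif, C1qb alone adds to the member results, and nothing can be said of M-box genes at large. Trpm1, the brightest member, held CATGTG 141 bases before its first start and CACGTG, found in 6.02% of windows, 229 bases before its second. The 3 windows of Mitf held none of these letters. A match describes the window only and is not a bound site.

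The signals are linear MAS5 intensities. The background limit was a signal of 349 at P0 and 257 at E12.5, the 99th percentile over 177 probe sets of genes that the eye is not known to use, such as olfactory receptors and keratin-associated proteins. No member was above the limit at P0, 0 of 9 genes, against 28.4% of all genes. Trpm1 and Rab38 were above it at E12.5, 2 of 9, against 30.3%. By probe set these were 0 of 19 at P0, against 19.4% of all probe sets, and 4 of 19 at E12.5, against 21.0%. The E12.5 share by probe set therefore lay near that of the whole array, and it came from 2 genes. A call of a higher signal in 1 cell required a signal above its limit and a ratio of at least 4, with signals under a limit raised to it. The E12.5 cell had 2 such members, against 7.30% of all genes, and the P0 cell had 0, against 9.24%. Of all calls 55.9% were on the P0 side, and scaling by the spike-in controls made it 33.2%, with Trpm1 and Rab38 called at E12.5 under both.

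**Figure D1:**
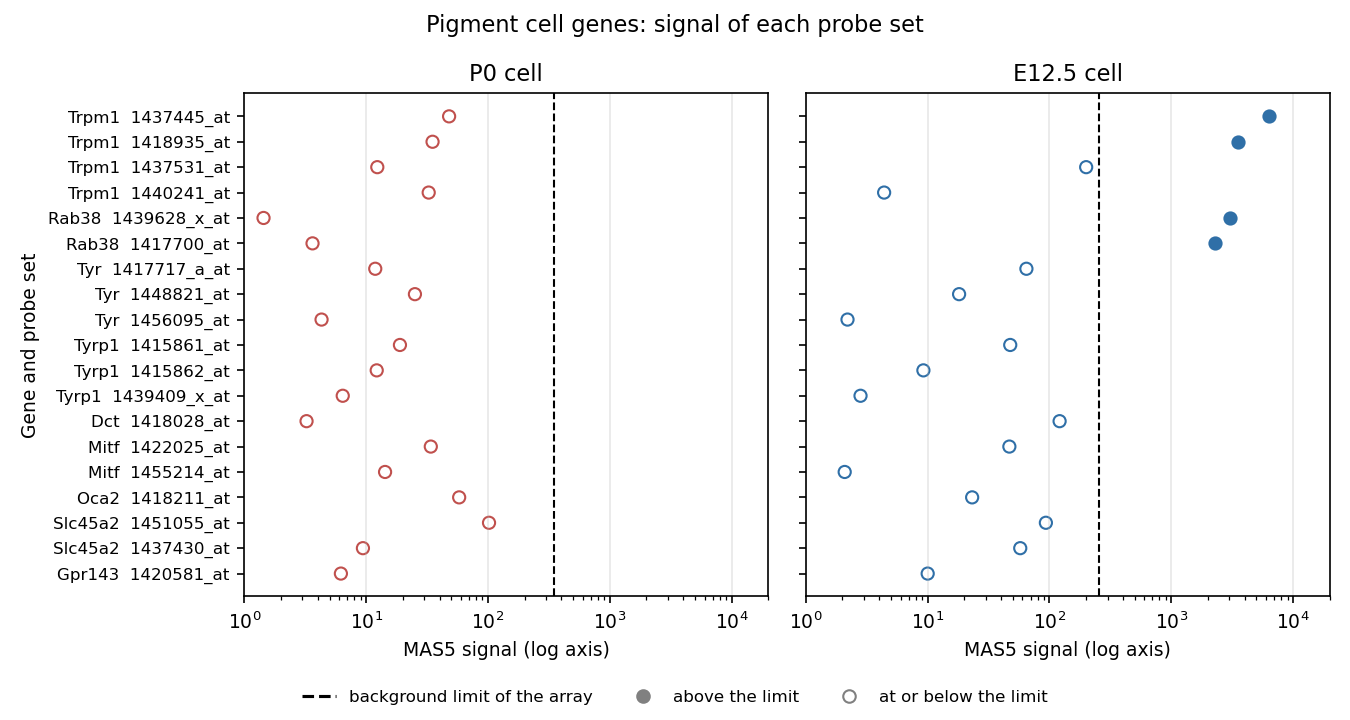
MAS5 signal (log axis) of each of the 19 member probe sets in the P0 cell (left) and the E12.5 cell (right), with filled points above and open points at or below the array's background limit (dashed line). In the P0 cell all points lie left of the limit; in the E12.5 cell 2 probe sets of Trpm1 and 2 of Rab38 lie right of it.

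Trpm1 gave the highest signal of the group. Its probe set 1437445_at had a signal of 47.95 at P0 and 6301 at E12.5, and 1418935_at had 35.1 at P0 and 3550 at E12.5. The first of these lay at percentile 53.0 of all probe sets at P0 and 96.7 at E12.5. With the P0 signal raised to the limit, Trpm1 was at least 18.1-fold higher at E12.5 by 1437445_at and at least 10.2-fold by 1418935_at. The other two probe sets did not pass the limit in either cell: 1437531_at had 12.3 at P0 and 200.2 at E12.5, and 1440241_at had 32.6 at P0 and 4.39 at E12.5. Such a split was common in this cell. Of 1731 genes with more than 1 probe set whose brightest exceeded the E12.5 limit 10-fold, 69.0% had at least 1 probe set at or under the limit, and of the 275 with 4 probe sets 57.5% had at least 2. With the mean log2 signal over its 4 probe sets Trpm1 stayed above the limit at E12.5 and was under it at P0. With the P0 mean raised to the limit, its log2 ratio, P0 over E12.5, was then -0.10 and no longer a call. That value is a bound, and the ratio of the means themselves lay further to the E12.5 side.

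Rab38 was the other detected member, and both of its probe sets showed it. Probe set 1417700_at had a signal of 3.63 at P0 and 2295 at E12.5, and 1439628_x_at, whose name marks it as able to cross-hybridise, had 1.44 at P0 and 3035 at E12.5. Rab38 was at least 6.58-fold higher at E12.5 by the first and at least 8.70-fold by the second. At P0 both signals lay at or below percentile 10.5 of all probe sets. Rab32, the close relative of Rab38 that shares its part in melanosome loading, was below the limit in both cells, with a signal of 1.39 at P0 and 78.7 at E12.5.

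The enzymes of melanin synthesis were not detected in either cell. Tyrosinase had 3 probe sets: 1417717_a_at gave 11.9 at P0 and 64.7 at E12.5, 1448821_at 25.1 at P0 and 18.1 at E12.5, and 1456095_at 4.30 at P0 and 2.20 at E12.5. The highest of these was 25.2% of the E12.5 limit. Tyrp1, a relative of tyrosinase, also had 3 probe sets, and its brightest, 1415861_at, gave 18.9 at P0 and 47.7 at E12.5. Its others, 1415862_at with 12.2 at P0 and 9.23 at E12.5 and 1439409_x_at with 6.42 at P0 and 2.81 at E12.5, lay lower still. Dct, dopachrome tautomerase, had 1 probe set with a signal of 3.24 at P0 and 121 at E12.5. The E12.5 signal of Dct was 47.1% of the limit and above 95.5% of the background probe sets, the closest to the limit among the 7 undetected members in that cell. It passed when the limit was set at the 95th percentile (118) or taken from bacterial controls (111), without becoming a call.

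The regulator and the melanosome membrane proteins were likewise below background. Mitf had 33.9 at P0 and 46.9 at E12.5 with 1422025_at, and 14.3 at P0 and 2.09 at E12.5 with 1455214_at. Oca2 had a signal of 58.0 at P0 and 23.2 at E12.5. Slc45a2 reached 102 at P0 and 93.5 at E12.5 with 1451055_at, and 9.40 at P0 and 57.6 at E12.5 with 1437430_at. The P0 signal of 102 was the highest of any member in that cell, 29.2% of the limit, and it passed the lower limits of 99.1 (95th percentile) and 93.9 (bacterial controls). Gpr143 had 6.20 at P0 and 10.0 at E12.5. The 13 probe sets of the 7 undetected genes ran from 3.24 to 102 with a median of 12.2 at P0, where background probe sets had a median of 13.3, and from 2.09 to 121 with a median of 23.2 at E12.5, where background probe sets had a median of 17.4. Of the 13, 7 had the higher signal at P0 and 6 at E12.5. Signals at these levels have no order that can be read.

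**Figure D2:**
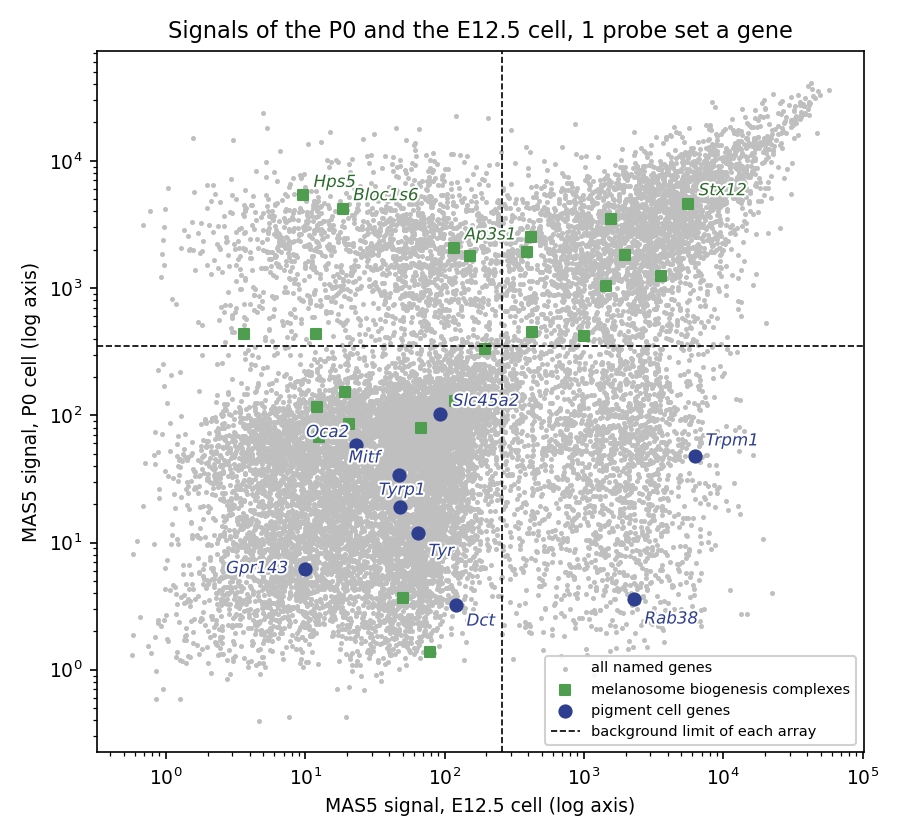
MAS5 signals of the P0 cell (vertical, log axis) against the E12.5 cell (horizontal, log axis), 1 point a gene, taken from its brightest probe set, with all named genes in grey, the 9 pigment cell genes in blue and 24 genes of the melanosome biogenesis list in green. The green genes include some outside the complexes, such as Stx12. Trpm1 and Rab38 lie right of the E12.5 limit and under the P0 limit; the other 7 members lie under both, while Hps5 and Bloc1s6 lie above the P0 limit and left of the E12.5 limit.

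Genes of the machinery that builds melanosomes were detected in both cells, with more of them above the limit at P0, by a margin that varied with how probe sets were counted. BLOC-1, BLOC-2, BLOC-3 and the adaptor AP-3 are complexes that sort cargo to melanosomes and to other lysosome-related organelles, and cells without pigment use them too. The list counted here also held genes outside these complexes, such as Rab32, Lyst, Stx12 and Kif13a. Of its 24 genes with a probe set, 15 were above the limit at P0, against 28.4% of all genes, and 9 at E12.5, against 30.3%. By its brightest probe set, a total of 6 were called higher at P0, against 9.24% of all genes, and 0 at E12.5, against 7.30%. Counting a gene when any of its probe sets passed, 15 were above the limit at P0, against 29.1% of all genes, and 11 at E12.5, against 31.3%, with 10 in both. On that count 7 were called at P0, against 11.2%, and 3 at E12.5, against 9.18%, with Snapin in both. With the mean over probe sets 7 were above the limit at P0 and 5 at E12.5. The share of all genes was not taken for that setting. By brightest probe set the median log2 ratio of the 15 genes detected was 0.76. All 7274 genes above the limit in at least 1 cell had a median of 0.02. All 15 were above the limit at P0, and 9 of them also at E12.5. The others, with E12.5 signals raised to the limit, have positive ratios by construction. The median of 0.76 is such a bound, that of Bloc1s5, and shows no lean beyond these counts. Among the 9, Ankrd27, Ap3d1, Bloc1s2 and Lyst had ratios from 0.10 to 2.58. Ap3m1, Dtnbp1, Kif13a, Stx12 and Vamp7 had ratios from -1.54 to -0.12. Hps5, a subunit of BLOC-2, was at least 20.8-fold higher at P0, with a signal of 5361 at P0 and 9.67 at E12.5. Bloc1s6, a subunit of BLOC-1, was at least 16.4-fold higher, with 4213 at P0 and 18.6 at E12.5. The AP-3 subunit gene Ap3s1 was at least 8.05-fold higher, with 2070 at P0 and 117 at E12.5. Ap3d1 was 6.0-fold higher, with 2513 at P0 and 419 at E12.5, and Bloc1s2 was 4.94-fold higher, with 1918 at P0 and 388 at E12.5.

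Several genes depended on the probe set. Snapin, of BLOC-1, was the sixth call. With 1415756_a_at it had 1800 at P0 and 152 at E12.5, at least 7.0-fold higher at P0. With 1426578_s_at it had 55.8 at P0 and 1806 at E12.5, at least 5.18-fold higher at E12.5. Hps3, of BLOC-2, had 128 at P0 and 120 at E12.5 with its brightest probe set over both cells, but 2.52 at P0 and 3574 at E12.5 with 1450647_at, at least 10.2-fold higher at E12.5. The kinesin gene Kif13a had 1239 at P0 and 3593 at E12.5 with its brightest probe set and 310.2 at P0 and 1566 at E12.5 with 1451890_at, at least 4.49-fold higher at E12.5. Ap3m1, of AP-3, had 1037 at P0 and 1441 at E12.5 with its brightest probe set and 1451 at P0 and 181 at E12.5 with 1416374_at, at least 5.64-fold higher at P0. Of the 6 called genes, 3 had no further probe set and none had a further probe set called the same way. Scaled to the spike-ins, 3 were called higher at P0 and 2 at E12.5, and with the mean over probe sets 3 were called at P0.

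The grouping by complex was made after the values were seen, and each complex had only 2 to 7 genes with a probe set. By brightest probe set 28.4% of all genes were above the limit at P0 and 30.3% at E12.5. By any probe set these shares were 29.1% and 31.3%. Counts below such as 1 of 3 or 2 of 7 lie near them. By complex and brightest probe set, AP-3 had 4 of 4 subunit genes above the limit at P0 and 2 of 4 at E12.5. BLOC-1 had 5 of 7 at P0 and 2 of 7 at E12.5. BLOC-2 had 1 of 3 at P0 and 0 of 3 at E12.5, which became 1 of 3, Hps3, when any probe set counted. BLOC-1 had 3 of 7 at E12.5 on that count. BLOC-3, formed by Hps1 and Hps4 and acting on Rab38 and Rab32, had 0 of 2 in both cells on either count. Ankrd27, which links Rab38 and Rab32 to vesicle fusion, had 3511 at P0 and 1562 at E12.5. Stx12, an endosomal SNARE that works with BLOC-1, was among the brightest of the group in both, with 4611 at P0 and 5614 at E12.5.

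Melanosomes share many proteins with lysosomes. Of 11 genes for melanosome contents, 4 were above the limit at P0, against 28.4% of all genes, and 4 at E12.5, against 30.3%. A call at P0 was made for 1, against 9.24% of all genes. Slc3a2, a subunit of amino acid transporters, had 7059 at P0 and 13239 at E12.5. The lysosomal cystine exporter gene Ctns had 730 at P0 and 1277 at E12.5, and Atp7a, the copper pump that supplies tyrosinase, had 410 at P0 and 413 at E12.5. Clcn7, a lysosomal chloride transporter gene, was at least 6.86-fold higher at P0 (1765 at P0 and 7.69 at E12.5). Mfsd12 was above the limit at E12.5 only, with 148 at P0 and 423 at E12.5. The genes most particular to pigment cells were below the limit in both: Pmel, the melanosome fibril protein, had 35.8 at P0 and 45.5 at E12.5, Mlana 22.7 at P0 and 10.9 at E12.5, and Gpnmb 41.2 at P0 and 74.0 at E12.5.

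Of 9 melanosome transport genes, 2 were above the limit at P0, against 28.4% of all genes, and 2 at E12.5, against 30.3%. Dynll1, a dynein light chain gene expressed in most cells, had 19887 at P0 and 33212 at E12.5. Mreg, the gene behind the dilute suppressor coat mutation, was at least 4.53-fold higher at P0, with 1165 at P0 and 3.68 at E12.5. Myo5a, the motor that holds melanosomes at the cell edge in melanocytes, was above the limit at E12.5 only, with 22.4 at P0 and 972 at E12.5, and was not a call. Rab27a and Mlph, which tie the melanosome to that motor, were below the limit in both cells, with 15.6 and 68.2 at P0 and 35.0 and 18.8 at E12.5.

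Regulators and signals around Mitf were partly expressed. Of 14 regulators, 6 were above the limit in each cell and 4 in both, against 28.4% of all genes at P0 and 30.3% at E12.5. In this list 1 was called at P0, against 9.24% of all genes, and 2 at E12.5, against 7.3%. The P0 call was Sox9, a transcription factor gene of pigment epithelium, progenitors and glia, at least 35.4-fold higher, with 9110 at P0 and 48.1 at E12.5. A further probe set of Sox9 gave 551 at P0 and 123 at E12.5, at least 2.14-fold higher at P0 and no call. Otx1, which with Otx2 is needed to form pigmented epithelium, was at least 4.51-fold higher at E12.5, with 48.8 at P0 and 1573 at E12.5. Otx2 was undetected, with 41.5 at P0 and 62.8 at E12.5. Pax6 was 15.4-fold higher at E12.5, with 1059 at P0 and 16320 at E12.5. The beta-catenin gene Ctnnb1 had 19377 at P0 and 21287 at E12.5, and Tcf4 had 3624 at P0 and 2198 at E12.5, neither a call. Counting any probe set, both were called at E12.5, Ctnnb1 at 4.81-fold with 1450008_a_at and Tcf4 at least 5.16-fold with 1416724_x_at. Creb1 was above the limit at P0 only, with 833 at P0 and 20.5 at E12.5. Usf1 was above it at E12.5, with 707, while its P0 signal of 347 lay just under the P0 limit of 349. Of the genes related to Mitf, Tfe3 was detected in both cells, with 3334 at P0 and 2692 at E12.5, while Tfeb (298 at P0 and 88.6 at E12.5) and Tfec (28.6 at P0 and 8.78 at E12.5) were below the limit.

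Of 11 signalling genes, 6 were above the limit at P0, against 28.4% of all genes, and 5 at E12.5, against 30.3%. In this list 2 were called at P0, against 9.24% of all genes, and 1 at E12.5, against 7.3%. Kitl, the ligand that guides melanoblasts, was at least 10.8-fold higher at P0, with 2774 at P0 and 3.70 at E12.5, and a further probe set was called the same way. The endothelin receptor gene Ednrb was at least 7.42-fold higher there, with 1910 at P0 and 5.49 at E12.5, while its 2 further probe sets were below the limit in both. Mgrn1, a ubiquitin ligase gene whose loss darkens the mouse coat, was at least 4.62-fold higher at E12.5, with 12.2 at P0 and 1612 at E12.5. By brightest probe set, Gnas, Gnai3 and Atrn were above the limit in both cells and differed by at most 1.42-fold. A further probe set of Gnai3, 1437225_x_at, had 501 at P0 and 253 at E12.5, at least 1.95-fold higher at P0 and no call. Pomc, the precursor of melanocortins, was above the limit at E12.5 only, with 89.1 at P0 and 727 at E12.5, and a further probe set, 1455858_x_at, was called there. The melanocortin receptor gene Mc1r was undetected, with 56.9 at P0 and 34.6 at E12.5. With the mean over probe sets none of Kitl, Ednrb and Mgrn1 was a call.

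**Figure D3:**
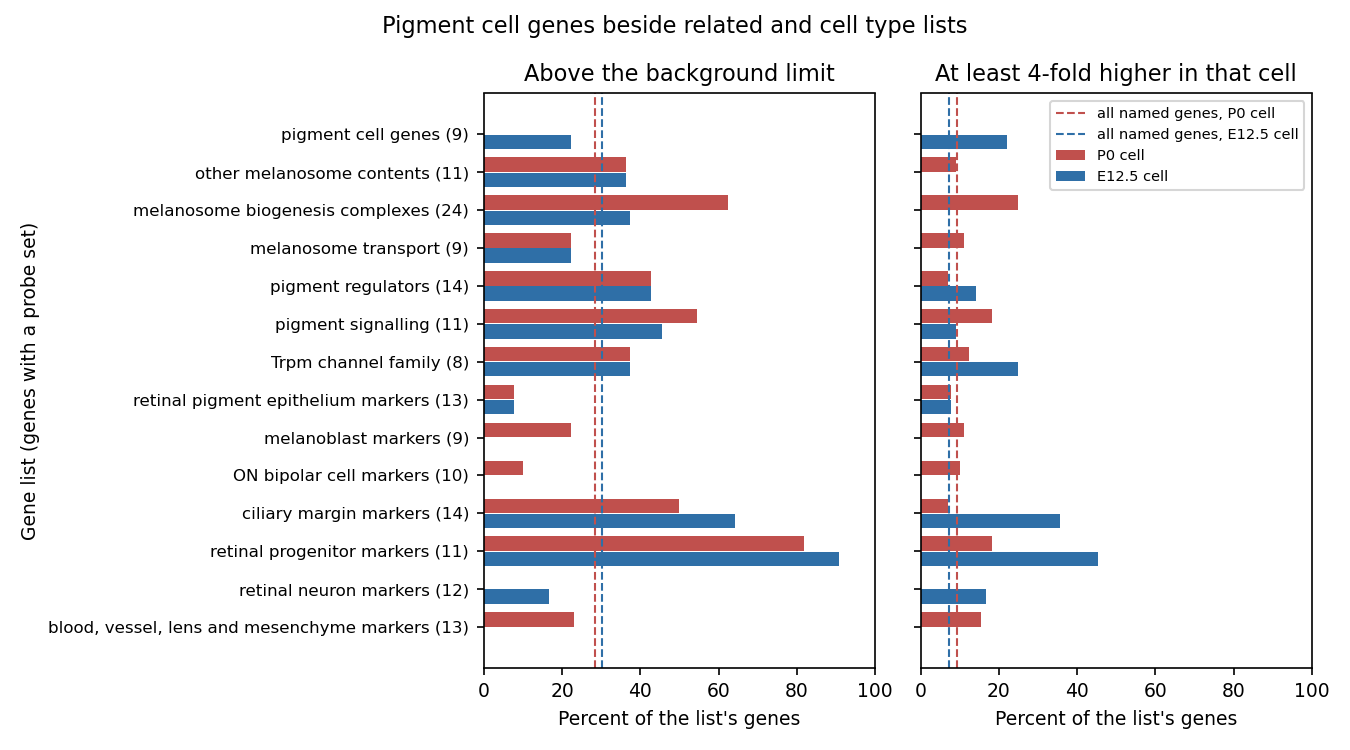
Percent of each list's genes above the background limit (left) and called at least 4-fold higher in that cell (right), for the P0 cell (red) and the E12.5 cell (blue), each gene by its brightest probe set, with dashed lines for all named genes. Pigment cell genes have no P0 bar, and by brightest probe set, as drawn, the melanosome biogenesis complexes have calls in the P0 cell only.

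Because Trpm1 and Rab38 are read as marks of pigmented epithelium, of melanoblasts or, for Trpm1, of ON bipolar cells, the markers of those types were set beside them. For these marker lists the shares of all genes above the limit were 28.4% at P0 and 30.3% at E12.5. The retinal pigment epithelium list includes Tyr, itself a member, so it is not fully separate from the member results. Of 13 retinal pigment epithelium markers, 1 was above the limit in each cell, and their summed signal was 16705 at P0 and 4655 at E12.5. At P0 it was Rlbp1, which Müller glia also express, with 16125 at P0 and 31.1 at E12.5. At E12.5 it was Stra6, the receptor for vitamin A uptake, with 22.6 at P0 and 3979 at E12.5. Rpe65, the visual cycle isomerase, had 45.1 at P0 and 3.76 at E12.5, and Lrat, Rdh5, Rgr and Best1 were also below the limit in both. Under either lower limit (95th percentile or bacterial controls), 2 markers of this list were above it at P0 and 3 at E12.5.

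Of 9 melanoblast markers, 2 were above the limit at P0, Ednrb and Kit (451 at P0 and 59.5 at E12.5, and 1676 at P0 and 4.76 at E12.5 with 1452514_a_at), and 0 at E12.5, with summed signals of 2800 at P0 and 362 at E12.5. The defining marker Sox10 had 131 at P0 and 188 at E12.5, Pax3 91.1 at P0 and 6.65 at E12.5, all under the limits. Of 10 ON bipolar markers, 1 was above the limit at P0 by brightest probe set, the widely expressed G protein gene Gnao1, and 0 at E12.5, with summed signals of 2754 at P0 and 689 at E12.5. Gnao1 had 2145 at P0 and 130 at E12.5 with 1448031_at, and 75.2 at P0 and 2059 at E12.5 with 1421152_a_at, so that its probe sets were called in opposite directions. At E12.5, where Trpm1 was detected, Gnao1 was the only measured ON bipolar marker with any probe set above the limit. No measured melanoblast marker had one. These counts depended on the limit. Under either lower limit (95th percentile or bacterial controls), 3 ON bipolar markers were above it in each cell by brightest probe set. Of the melanoblast markers, 1 was then above it at E12.5, and 3 (95th percentile) or 4 (bacterial controls) at P0.

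The assigned region and the tissue of both cells were checked in the same way. Over all genes, 28.4% were above the limit at P0 and 30.3% at E12.5. Of 14 ciliary margin markers, 7 were above the limit at P0 and 9 at E12.5, and of 11 retinal progenitor markers 9 were at P0 and 10 at E12.5. Since the cells were assigned from their expression, these counts are not independent of the label. Of 12 neuron markers, 0 were above the limit at P0 and 2 at E12.5, Gap43 and Tubb3. Of 13 markers of blood, vessel, lens and mesenchyme, 3 were above it at P0 and 0 at E12.5. The 3 were Col1a2, Pdgfra and Rgs5, with 2653, 3088 and 833 at P0. Their part in the P0 signals of the melanosome machinery was not tested.

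Trpm1 belongs to a family of cation channels that was detected in part. Of 8 members of the family, 3 were above the limit in each cell and 2 in both, Trpm3 and Trpm7. The shares of all genes above it were 28.4% at P0 and 30.3% at E12.5. Trpm3, a channel gene also expressed in pigment epithelium and ciliary body, had 1560 at P0 and 6580 at E12.5, 4.22-fold higher at E12.5, but only 1 of its 3 further probe sets above the limit had that sign. Trpm5 was at least 5.86-fold higher at P0, with 1508 at P0 and 52.8 at E12.5. Trpm7 had 1824 at P0 and 712 at E12.5.

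The genes next to the members on the chromosome, by RefSeq order in GRCm38.p6, were taken 1 on each side. Of these 18 genes, 3 were above the limit at P0, against 28.4% of all genes, and 7 at E12.5, against 30.3%. Beside Trpm1, Mtmr10, a gene of the myotubularin phosphatase family, was at least 4.51-fold higher at E12.5, with 5.29 at P0 and 1573 at E12.5. Beside Rab38, Ctsc, a lysosomal protease gene, was at least 4.02-fold higher at E12.5, with 4.21 at P0 and 1401 at E12.5. The neighbours on their other sides, Gm32633 and Tmem135, were below the limit in both cells. Beside the undetected members, Mageh1, next to Gpr143, was at least 19.8-fold higher at P0 (5105 at P0 and 185 at E12.5), the largest call among the 18. Gpc6, next to Dct, was at least 11.5-fold higher at E12.5 (33.8 at P0 and 4020 at E12.5), and Herc2, next to Oca2, at least 6.95-fold higher at P0 (1789 at P0 and 68.9 at E12.5). Foxp1, beside Mitf, Shroom2, beside Gpr143, Nox4, beside Tyr, and Tgds, beside Dct, were above the limit at E12.5 (4313, 1265, 375 and 519), Foxp1 also at P0 (1166), and none was a call.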

How the data were processed

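Signal intensity per probe set was deposited by the authors on a linear scale, made with MAS5 (per the submitters' processing notes and design text); the mean over probe sets without 2% at each end was 500.0 in both arrays. Per the labels' protocols, oligo dT primed cDNA received a tail and 35 PCR cycles, which favours the 3′ ends of transcripts. The settings of MAS5 are not stated in the labels. The table used here holds no detection calls, and depth in reads does not apply. The platform annotation of GEO gives 1 gene symbol to 34958 of 45101 probe sets, several to 932 and none to 9211; 34754 were updated by gene identifier from RefSeq (GRCm38.p6), and the others kept the platform's name. Each gene's value is that of its brightest probe set (mean log2 signal over both cells), and all member probe sets were also read singly. By rule, all members, the brightest list genes above the limit, all called list genes and the members' neighbours were to be named; of the region, progenitor and other tissue markers mostly counts are given, some other list genes and neighbours are only counted, and some genes under the limit that define a cell type or step are named outside the rule. Asip was matched by gene identifier. The members and lists were chosen with earlier results of these data known, and the complexes after the values were seen. Python 3.11.15, pandas 2.3.3 and NumPy 2.4.6 were used. The alternatives were other limits, scalings, probe set rules, a pseudocount of 100 and no filter on low values. Counting any probe set of a gene was added after seeing the data.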

Additional observations from a re-analysis of the deposited data

How the results depend on the processing

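No member was called higher at P0 under any of 8 alternatives, nor when any probe set counted, a setting chosen after seeing the data. Trpm1 and Rab38 were above the limit at E12.5 under all 6 alternatives that reset the limit, the scale or the probe sets. Under limits from bacterial controls or at the 95th percentile, 1 member and 1 member probe set (Slc45a2) were above it at P0, in place of 0. With the mean over probe sets 1 member (Rab38) was called at E12.5, and with no filter on low values 4 were (Dct, Rab38, Trpm1 and Tyr), in place of 2; the last counts ratios between signals under the limits. On the log2 scale, P0 over E12.5, the ratio ran from -9.31 to -2.72 for Rab38 and from -7.04 to -0.10 for Trpm1. The values of -2.72 and -0.10 are bounds with the P0 signal raised to the limit. Those of -9.31 and -7.04 are ratios of the signals as they stood, with no filter. Scaling to the spike-ins moved the median log2 ratio of genes above both limits from 0.00 to -0.86. Over all genes, 1682 P0 and 1328 E12.5 calls became 1049 and 2115 with the spike-ins, 863 and 700 with the mean over probe sets, 2006 and 2004 with bacterial controls and 3924 and 4115 with no filter. Of the other 432 values, of lists and of the ratios of Trpm1 and Rab38, 99 moved by over 1.5 times or beyond the SD of 0.83 between probe sets of a gene. No paired analysis was possible because each age has 1 cell. Signal over background limits what can be said of the 7 undetected members: each cell allows only that they lay under its limit.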
